A study of Mus musculus with 30 samples.

Results

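Described here are 30 genes that mark or build the myeloid lineage, out of 21631 protein-coding genes of the mouse annotation. They were chosen by name from knowledge of that lineage, by a rule that uses no measured value, but with earlier results of these data known. They comprise integrins, growth factor receptors, transcription factors, granule proteins, surface receptors, signalling adaptors and subunits of the phagocyte oxidase. Their histone acetylation was read from lists of ChIP-seq peaks, which are stretches of the genome enriched by chromatin immunoprecipitation with an antibody. A peak was given to every gene whose span it overlapped within 1 kb, and otherwise to the nearest gene end within 50 kb. The value of a gene in a list is the summed length of its peaks, called assigned kb. H3K27ac, H3K18ac and H3K56ac are acetyl groups on lysines of histone H3, and CBP, the product of Crebbp, is an enzyme that places such groups.

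All mice were C57BL/6 and carried Crebbp alleles flanked by recombination sites (CBPfl/fl). The wild-type mice lacked Mx-Cre, a Cre recombinase under an interferon-inducible promoter that acts in many blood cells, and the Crebbp-/- mice carried it. Wild-type B cells were B220+ splenocytes isolated by flow sorting, with 2 lists per acetylation mark and 1 list for CBP. Crebbp-/- lymphoproliferative disease, LPD below, was profiled as unsorted bulk spleen cells, with 2 lists per mark. Lymphoid progenitors were Lin- IL7Ra+ bone marrow cells, with 1 H3K27ac list for each genotype. LPD and B cells differed in genotype, disease and sorting at the same time, and these cannot be told apart. The labels give no age and do not say whether the 2 lists of a group came from separate animals, so the tests measure only the spread between lists, which may be technical.

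Myeloid cells arise from progenitors under the C/EBP factors and PU.1, which switch on the receptors for colony-stimulating factors and, in neutrophils, the genes of the granule proteins. B cells keep some of these proteins, among them the phagocyte oxidase and Fc receptors, and keep most of the rest silent. H3K27ac and H3K18ac mark active promoters and enhancers, and CBP and its relative p300 place much of both. The integrin chain Itgam, also called Mac1 or CD11b, is a standard surface marker of myeloid cells, and cells with both Mac1 and B220 were profiled by RNA-seq in the same series, in samples not analysed here.

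The lists were usable for this question at the level of positions only, since they give no scores, heights or read depth. Peak numbers ran from 13125 to 39529 over the acetylation lists, and LPD lists were longer than B cell lists for H3K18ac (35247 and 39529 peaks against 22485 and 23456) and for H3K56ac (28222 and 28934 against 18763 and 20392). Of 8 B cell markers, 8 had H3K27ac peaks in both B cell lists and 8 in both LPD lists, and of 6 lymphoid progenitor markers 4 had peaks in each progenitor list. Il7r, the gene of the receptor used in that sort, had 1.63 kb of H3K27ac in wild-type and 0.654 kb in Crebbp-/- progenitors. Changes per gene in LPD against B cells were fitted with limma on log2(assigned kb + 0.5), with Benjamini-Hochberg adjustment over all genes tested. The median change of all genes tested was -0.10 for H3K27ac, 0.38 for H3K18ac and 0.39 for H3K56ac on that scale.

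Promoters of 6 members carried a peak in some groups and not in others, and they are shown because the differences described below include these stretches. Each runs from 250 bases before to 50 bases after the RefSeq start site of the GRCm38.p6 build, which is the mm10 assembly, 5′ to 3′ on the strand of the gene. Capitals mark matches on either strand to GAGGAA, a core of PU.1 sites, to TTGCNNAA, a C/EBP motif, and to TGTGGT, a core of RUNX sites. The genes are the repressor Gfi1 at the upstream of its 2 listed starts (chr5:107725756-107726055, minus strand), the oxidase subunits Ncf1 (chr5:134229576-134229875, minus strand) and Cybb (chrX:9469275-9469574, minus strand), the endosomal glycoprotein Cd68 (chr11:69666121-69666420, minus strand), the integrin Itgam (chr7:128062390-128062689, plus strand) and the receptor Trem1 (chr17:48232489-48232788, plus strand).
Gfi1: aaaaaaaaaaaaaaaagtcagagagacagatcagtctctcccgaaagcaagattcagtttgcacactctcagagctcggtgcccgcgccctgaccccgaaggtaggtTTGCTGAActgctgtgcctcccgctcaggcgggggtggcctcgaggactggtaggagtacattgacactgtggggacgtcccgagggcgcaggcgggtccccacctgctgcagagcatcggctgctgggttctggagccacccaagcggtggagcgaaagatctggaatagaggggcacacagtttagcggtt
Ncf1: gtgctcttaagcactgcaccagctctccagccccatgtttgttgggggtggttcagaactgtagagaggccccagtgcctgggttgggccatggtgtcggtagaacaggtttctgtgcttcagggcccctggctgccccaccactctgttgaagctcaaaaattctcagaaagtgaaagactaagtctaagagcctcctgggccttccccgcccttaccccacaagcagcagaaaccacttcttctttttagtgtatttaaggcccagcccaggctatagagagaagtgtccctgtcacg
Cybb: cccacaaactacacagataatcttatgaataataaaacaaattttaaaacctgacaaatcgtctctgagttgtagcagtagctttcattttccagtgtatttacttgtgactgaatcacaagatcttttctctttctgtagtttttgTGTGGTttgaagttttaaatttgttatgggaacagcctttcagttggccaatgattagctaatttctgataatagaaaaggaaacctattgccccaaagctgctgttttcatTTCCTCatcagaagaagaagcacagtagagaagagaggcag
Cd68: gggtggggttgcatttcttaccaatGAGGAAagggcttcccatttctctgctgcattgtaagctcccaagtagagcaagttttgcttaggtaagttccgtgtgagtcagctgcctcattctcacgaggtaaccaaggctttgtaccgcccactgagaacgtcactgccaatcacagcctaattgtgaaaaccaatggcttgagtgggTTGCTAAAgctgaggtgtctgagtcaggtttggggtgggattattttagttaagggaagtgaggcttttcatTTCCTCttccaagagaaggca
Itgam: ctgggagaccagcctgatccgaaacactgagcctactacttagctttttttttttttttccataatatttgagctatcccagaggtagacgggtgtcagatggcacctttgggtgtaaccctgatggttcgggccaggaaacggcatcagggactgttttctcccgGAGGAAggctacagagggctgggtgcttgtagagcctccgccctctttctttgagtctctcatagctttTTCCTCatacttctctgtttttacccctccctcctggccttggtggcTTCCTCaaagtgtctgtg
Trem1: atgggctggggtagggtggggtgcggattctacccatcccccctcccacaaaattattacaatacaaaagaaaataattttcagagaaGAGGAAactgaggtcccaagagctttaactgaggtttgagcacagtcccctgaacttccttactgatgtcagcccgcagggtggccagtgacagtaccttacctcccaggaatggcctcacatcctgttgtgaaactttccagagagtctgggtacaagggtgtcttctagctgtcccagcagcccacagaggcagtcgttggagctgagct

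The promoter table held 23 of the 30 members, and Csf1r, Csf2rb, Cebpd, Cebpe, Cd14, Adgre1 and Tyrobp were not in it. GAGGAA was found in the promoters of 14 of the 23, against 27.2% of the 17274 genes with a promoter in the table. TTGCNNAA was found in 6 of the 23 (10.3% of all) and TGTGGT in 7 of the 23 (14.9% of all). The 6 promoters printed here span the range: those of Itgam, Cd68, Cybb and Trem1 hold GAGGAA or its complement, that of Gfi1 holds 1 TTGCNNAA match, and that of Ncf1 holds none of the 3. Each motif was searched on its own, so matches of different motifs may overlap. They are matches of letters, not measured sites.

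Acetylation was spread unevenly over the members. No peak of any of the 15 lists was assigned to 13 of the 30 genes, and 40.2% of all protein-coding genes were without one. The other 17 ranged from 1 acetylation list (Csf1r and Fcer1g) to all 14, which only Cebpb and Tyrobp reached, and 32.6% of all genes had a peak in all 14. At least 1 of the 6 B cell acetylation lists had a peak at 12 members (53.6% of all genes), and at least 1 of the 6 LPD lists at 15 members (56.6% of all genes). The heat map of assigned kb by member and list shows the granule genes as an empty block and Cebpb, Tyrobp and Gfi1 as the rows filled in the most lists.

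**Figure D1:**
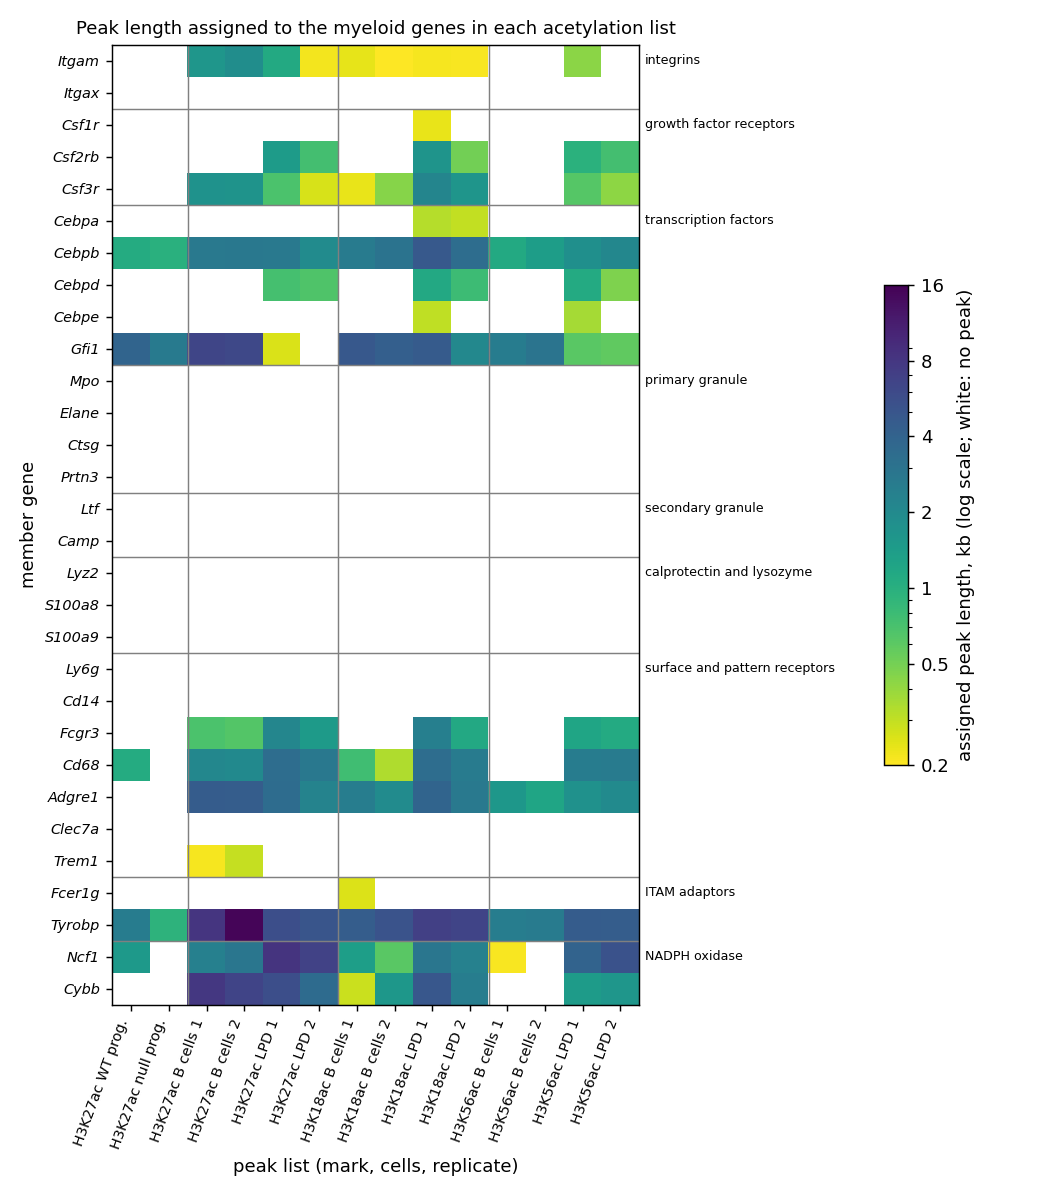
Assigned peak length of each of the 30 members (rows, grouped by role) in each of the 14 acetylation lists (columns), in kb on a log colour scale, with white where a list has no peak. The 13 fully white rows include every primary and secondary granule gene, while Cebpb and Tyrobp are filled in all 14 columns.

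The granule genes were without acetylation peaks. Mpo (myeloperoxidase), Elane (neutrophil elastase), Ctsg (cathepsin G) and Prtn3 (proteinase 3), the enzymes of primary granules, had 0 kb in every list. The same held for Ltf (lactoferrin) and Camp (cathelicidin) of secondary granules, for S100a8 and S100a9, whose products form calprotectin, and for Lyz2, lysozyme of macrophages and neutrophils. Ly6g, which marks mouse neutrophils, Cd14, the co-receptor for bacterial lipopolysaccharide, Clec7a, the receptor for fungal glucans, and Itgax, the integrin chain CD11c of dendritic cells, were also without an assigned peak. Bases within 10 kb of Cd14 did carry peaks of all 3 marks in every B cell and LPD list, given to other genes. A list holds only what passed the authors' peak caller, and its narrowest peak is 200 bp, so acetylation under that threshold was not detectable.

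In lymphoid progenitors, H3K27ac lay at few of the genes. Peaks were assigned to 5 members in the wild-type list (44.5% of all genes had one) and to 3 in the Crebbp-/- list (39.4% of all genes). Cebpb, a factor of macrophage and stress-induced granulocyte production, had 1.08 kb in the wild-type list and 0.998 kb in the Crebbp-/- list. Gfi1, a repressor needed for neutrophil and lymphoid development, had 3.91 and 2.62 kb, and Tyrobp, the adaptor DAP12, had 2.56 and 0.937 kb. Those 3 had a peak in both lists (38.8% of all genes), 2 in the wild-type list alone (5.70%) and 0 in the Crebbp-/- list alone (0.619%). Ncf1 had 1.49 kb in the wild-type list and no peak in the other. Cd68 had 1.08 kb and none, but this rests on the assignment: the wild-type peak lies 956 bp past the end of the gene inside its neighbour Mpdu1, and a Crebbp-/- peak in the same stretch, 3116 to 3858 bp past the start of Cd68, is just over 1 kb from the gene and was given to Mpdu1 alone. Assigned kb was thus higher in the wild-type list for 5 of 30 members and in the Crebbp-/- list for 0, and 39.8% and 5.30% of all genes lay in those directions. Summed over the members it was 10.1 kb against 4.55 kb, in lists of 17124 and 13125 peaks. There is 1 list per genotype, so the difference has no replicate check and no test. No member had peaks in both progenitor lists and in neither B cell H3K27ac list, and 0.832% of all genes did.

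The main comparison set Crebbp-/- LPD against B cells of wild-type mice, separately for each mark. Both B cell lists had an H3K27ac peak at 11 members and both LPD lists at 11, against 49.6% and 48.7% of all genes. For H3K18ac the counts were 9 members in B cells and 13 in LPD (42.7% and 50% of all genes), and for H3K56ac 4 and 11 members (43.4% and 49.6%). In LPD, 5 members had assigned kb above both B cell lists in all 3 marks, namely Csf2rb, Cebpd, Fcgr3, Cd68 and Ncf1, and 10.6% of all genes did. For another 4, Csf3r, Adgre1, Tyrobp and Cybb, both LPD lists were below the B cell lists for H3K27ac and above them for H3K18ac and H3K56ac, a pattern of 4.70% of all genes. No member was below in all 3 marks, and 2.46% of all genes were. None was above for H3K27ac and below for the other marks, and 0.00462% of all genes were.

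By mark, assigned kb was above both B cell lists in both LPD lists at 5 members for H3K27ac (12.7% of all genes), at 11 for H3K18ac (30.4%) and at 10 for H3K56ac (36.6%). It was below at 7 members for H3K27ac (21.6% of all genes), at 0 for H3K18ac (6.77%) and at 1 for H3K56ac (4.6%). Peaks in both LPD lists and no B cell list occurred at 2 members for H3K27ac (2.49% of all genes), 4 for H3K18ac (6.26%) and 6 for H3K56ac (4.66%). The opposite occurred at 1 member for H3K27ac (2.33%), Trem1, and at 0 for H3K18ac (1.15%) and H3K56ac (1.09%). Over all 3 marks, 5 members had no B cell peak and a peak in at least 1 LPD list (5.52% of all genes), namely Csf1r, Csf2rb, Cebpa, Cebpd and Cebpe. Of these, Csf2rb and Cebpd had a peak in all 6 LPD lists (1.46% of all genes).

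**Figure D2:**
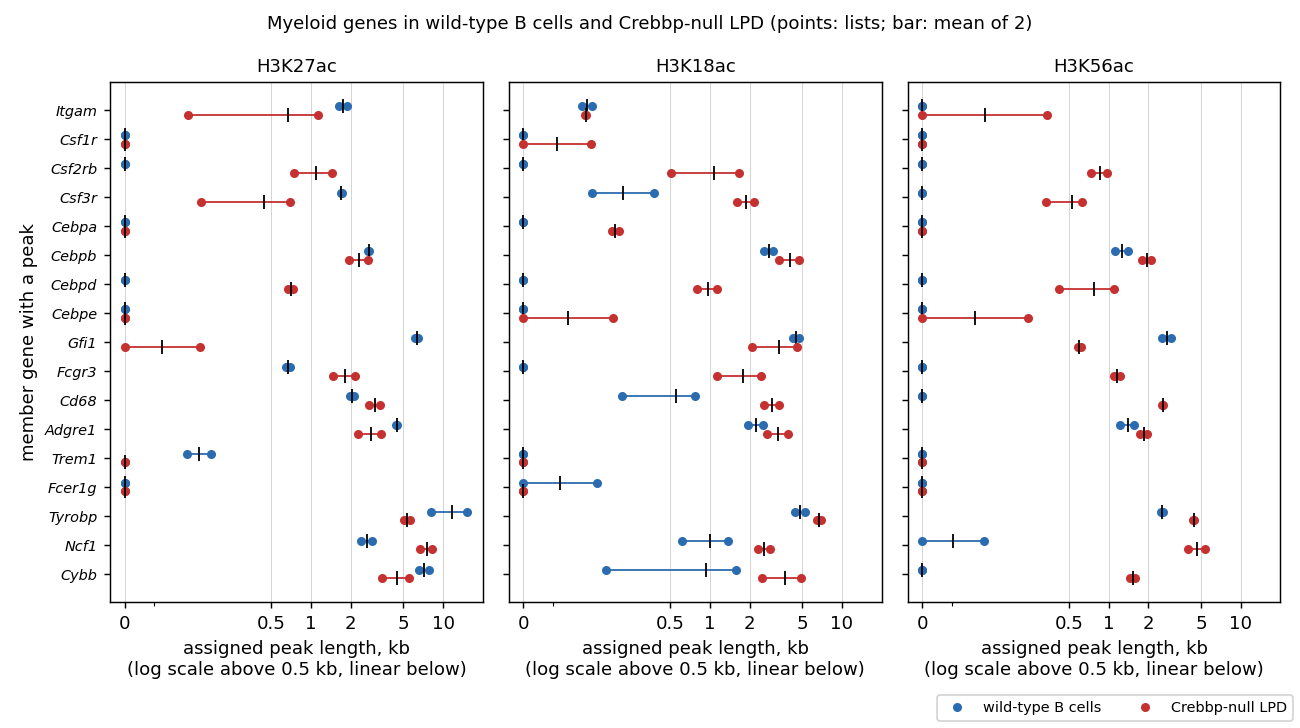
Assigned peak length (kb, logarithmic above 0.5 kb and linear below) of the 17 members with a peak, for 3 marks, in 2 wild-type B cell lists (blue points) and 2 Crebbp-null LPD lists (red points), with a black bar at the mean of 2. Points of Csf2rb and Cebpd lie at 0 in B cells and above 0 in LPD in each panel, and those of Gfi1 lie lower in LPD for H3K27ac and H3K56ac.

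Among the growth factor receptors, Csf2rb, the beta chain shared by the receptors for GM-CSF, interleukin 3 and interleukin 5, had no peak in any B cell list. Its H3K27ac was 1.43 and 0.740 kb in the 2 LPD lists, its H3K18ac 1.66 and 0.505 kb and its H3K56ac 0.975 and 0.740 kb. Both LPD lists of each mark were thus above both B cell lists. A gene with no peak in either list of a group could enter the fit only through the other group, which fixes the direction, so no p is given for it here or below. The gained stretch of the 3 marks is the same one, chr15:78326095-78327002 for H3K27ac, just inside one end of the gene. Its neighbour Csf2rb2, a close copy of the gene, lies 20373 bp away, and the mapping of reads between the 2 copies was not tested.

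Csf3r, the receptor for G-CSF that drives neutrophil production, had nearly all its peaks before the gene. H3K27ac was 1.71 and 1.69 kb in B cells and 0.689 and 0.262 kb in LPD, lower in both LPD lists, a change of -1.21 ± 0.25 (SE) with adjusted p 0.0347. H3K18ac went the other way, from 0.233 and 0.444 kb to 2.17 and 1.62 kb, a change of 1.51 ± 0.22 (SE) with adjusted p 0.0114. H3K56ac was at 0 in both B cell lists and at 0.633 and 0.422 kb in LPD . Without LPD list 1 the H3K18ac change was 1.35 with adjusted p 0.0510. With a pseudocount of 0.1 kb the H3K27ac change had adjusted p 0.0622. The stretch shared by all 4 H3K27ac lists, chr4:126018123-126019108, lies 5550 bp before the listed start, with the nearest other gene, Mrps15, 27819 bp away. Csf1r, the receptor for M-CSF, had a single 232 bp H3K18ac peak inside the gene in LPD list 1.

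Of the 4 C/EBP factors among the members, Cebpb had peaks in every acetylation list and Cebpa, Cebpd and Cebpe in LPD lists only. Cebpb had H3K27ac of 2.70 and 2.76 kb in B cells and 2.72 and 1.94 kb in LPD, overlapping values, with its start site covered in all 14 acetylation lists. Its H3K56ac was 1.12 and 1.40 kb against 1.79 and 2.1 kb, a change of 0.48 ± 0.13 (SE) with adjusted p 0.0495. Over the alternatives the adjusted p of that change ran above the threshold in 8, among them centring the lists on their medians, where the change was 0.06. Cebpd, a factor induced in granulocyte maturation and inflammation, was at 0 in every B cell list. In LPD it had H3K27ac of 0.728 and 0.671 kb, H3K18ac of 1.13 and 0.794 kb and H3K56ac of 1.09 and 0.466 kb. These peaks lie at or just outside one end of the gene (chr16:15886674-15887806 for H3K18ac), 1417 bp from Spidr. Cebpa, the factor that commits progenitors to the granulocyte and monocyte fate, had H3K18ac alone, 0.325 and 0.301 kb in LPD and 0 in B cells, in a stretch 6292 bp past its end (chr7:35128221-35128545). Cebpe, which acts in late neutrophil maturation, had 1 H3K18ac and 1 H3K56ac peak, both in LPD list 1.

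Gfi1 fell in LPD for H3K27ac and H3K56ac. Its H3K27ac was 6.44 and 6.18 kb in B cells and 0.256 and 0 kb in LPD, a change of -3.47 ± 0.23 (SE) with adjusted p 0.00353. Apart from 0.256 kb in LPD list 1, the LPD lists lacked the H3K27ac that B cells had around both listed starts, at chr5:107717322-107718219 and chr5:107718343-107719611 inside the gene, and at chr5:107708135-107708589, 8065 bp past its end. H3K56ac was 2.54 and 2.97 kb in B cells and 0.616 and 0.581 kb in LPD, a change of -1.56 ± 0.10 (SE) with adjusted p 0.00396. H3K18ac was 4.76 and 4.25 kb in B cells and 4.55 and 2.08 kb in LPD, which overlap, without a call in the main fit. After centring each list on its median, Gfi1 H3K18ac was called lower by limma, as were 19.1% of all genes tested. Both LPD lists had H3K18ac at the printed promoter while neither had H3K27ac there. The 2 progenitor lists had H3K27ac over that promoter as well, as the plot of peaks around 4 members shows. Without LPD list 2 the H3K56ac change was -1.54 with adjusted p 0.0518, while the H3K27ac change passed the threshold under each of the alternatives tried.

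**Figure D3:**
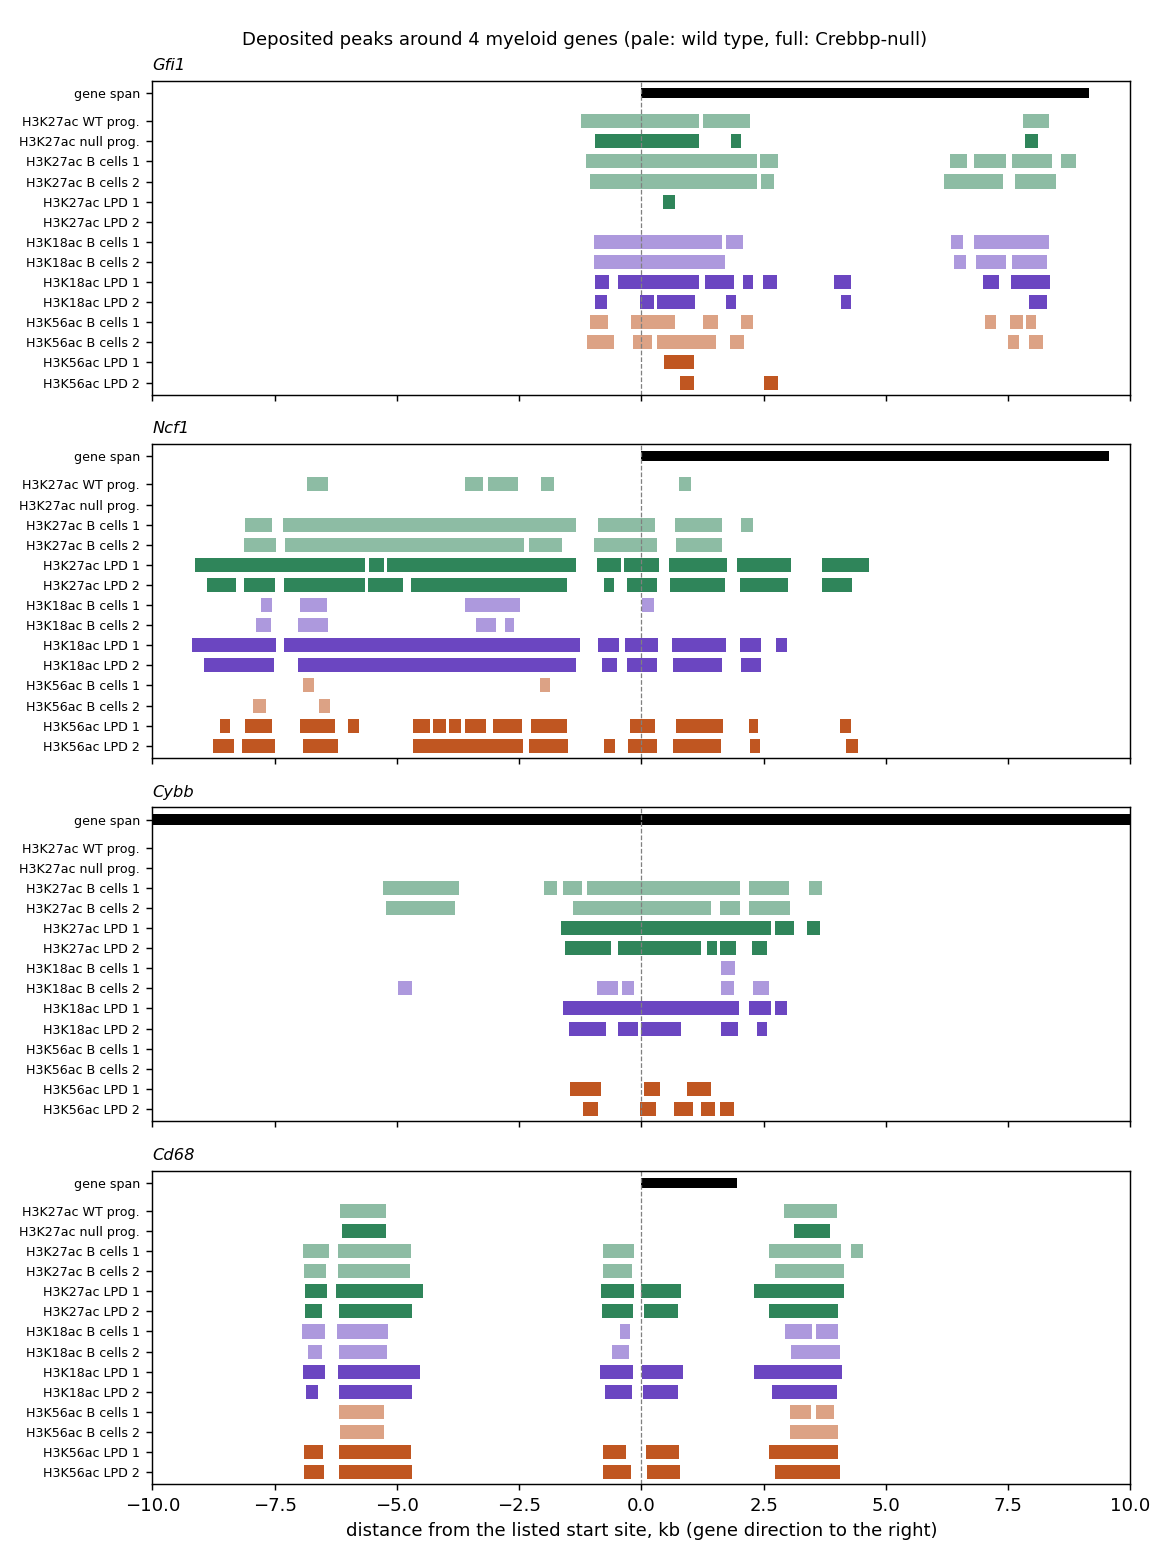
Deposited peaks within 10 kb of the listed start site of Gfi1, Ncf1, Cybb and Cd68 (x axis in kb, gene direction to the right), one row per acetylation list, with the gene span in black, wild-type lists pale and Crebbp-null lists in full colour. At Gfi1 the H3K27ac rows of B cells and progenitors are filled around the start and those of LPD hold 1 short peak, while at Ncf1 and Cybb the H3K56ac rows are filled in LPD and nearly or wholly empty in B cells.

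Of the integrins, Itgam had H3K27ac of 1.61 and 1.86 kb in B cells and 1.12 and 0.216 kb in LPD, with no overlap but no call. In B cells all of this lay 12033 to 12856 bp before the gene, at chr7:128048216-128049783 and chr7:128050210-128050606, and not at its start. A peak over the start site, within the promoter printed for Itgam, occurred in LPD list 1 for H3K27ac (251 bp) and for H3K56ac (426 bp) and in no other list. H3K18ac at the distal stretch ran from 0.2 to 0.234 kb over the 4 lists. Itgax, the gene next to it, had no peak.

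Of the surface receptors, Fcgr3 rose in LPD for H3K27ac and Cd68 for H3K18ac. Fcgr3, the low-affinity receptor for immunoglobulin G on myeloid and NK cells, had H3K27ac of 0.693 and 0.651 kb in B cells and 2.16 and 1.47 kb in LPD, a change of 0.97 ± 0.19 (SE) with adjusted p 0.0304, and 0.0671 and 0.0935 without B cell list 1 or 2. Its H3K18ac and H3K56ac were absent from B cells, and in LPD they were 2.43 and 1.14 kb and 1.21 and 1.09 kb. All of it lay 3450 bp or more past the gene, mainly at chr1:171043828-171045716, between Fcgr3 and Fcgr4, which is 14066 bp away. Cd68, a glycoprotein of macrophage endosomes, had H3K18ac of 0.765 and 0.336 kb in B cells and 3.31 and 2.59 kb in LPD, a change of 1.74 ± 0.26 (SE) with adjusted p 0.0126. Its H3K56ac was 0 in both B cell lists and 2.54 and 2.58 kb in LPD. Without LPD list 1 the H3K18ac change was 1.59 with adjusted p 0.0656. H3K27ac at Cd68 was 2.1 and 1.99 kb against 3.34 and 2.76 kb, above in both LPD lists without passing the threshold.

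At Cd68 a stretch inside the first part of the gene was marked in LPD and not in B cells for all 3 marks (chr11:69665350-69666169 for H3K27ac). The flanking peaks belong also to its neighbours Eif4a1 and Mpdu1, and the B cell H3K56ac peaks past the end of Cd68 lie over 1 kb from it and went to Mpdu1 alone. With whole peaks replaced by the bases within 10 kb of the gene the Cd68 change was 0.75 for H3K18ac. Adgre1, the macrophage antigen F4/80, had H3K27ac of 4.51 and 4.38 kb in B cells and 3.41 and 2.25 kb in LPD, and H3K18ac of 2.51 and 1.93 kb against 3.89 and 2.71 kb. Its H3K56ac was 1.57 and 1.22 kb in B cells and 1.73 and 1.96 kb in LPD, and none of the 3 changes passed the test. All of these peaks lay 8798 to 13974 bp from Adgre1 and 14083 to 20078 bp from Vav1, a signalling gene of lymphocytes, so their gene is uncertain. Trem1, an activating receptor of neutrophils and monocytes, had H3K27ac over its start in both B cell lists (0.214 and 0.296 kb) and in neither LPD list. The Trem1 peaks are near the 200 bp minimum.

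Of the adaptors with an activation motif (ITAM), Tyrobp had the longest H3K27ac peaks of any member in B cells. Its H3K27ac was 8.10 and 15.2 kb in B cells and 5.6 and 5.05 kb in LPD, below in both LPD lists without a call. H3K18ac was 4.41 and 5.25 kb against 6.97 and 6.50 kb, also without a call, and H3K56ac was 2.48 and 2.58 kb against 4.45 and 4.37 kb, a change of 0.70 ± 0.08 (SE) with adjusted p 0.00840. The last change was 0.28 with adjusted p 0.0895 after centring the lists on their medians, and its adjusted p was 0.0687 without LPD list 1 and 0.0740 without LPD list 2. Part of the H3K27ac is shared with Hcst, the neighbouring adaptor gene DAP10, and with Nfkbid. Fcer1g, the other ITAM adaptor, was assigned a single 252 bp H3K18ac peak, in B cell list 1. Counted as bases within 10 kb of the gene, without assignment, Fcer1g had H3K27ac in every B cell and LPD list. Its H3K56ac was then 0 and 0 kb in B cells and 0.855 and 0.962 kb in LPD.

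CBP itself was mapped in B cells by 1 list of 1000 peaks, and 3.89% of all genes had one. Among the members only Tyrobp did, with a 328 bp peak at chr7:30394533-30394860, 18921 bp from the gene. It lies inside a stretch that carried H3K27ac (chr7:30392282-30395179) and H3K18ac (chr7:30392296-30395085) in all 4 lists of each mark. Both progenitor lists had H3K27ac within that stretch too. The nearest other gene, Hcst, is 22851 bp away.

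The oxidase genes Ncf1 and Cybb, which encode p47phox and the catalytic subunit gp91phox, carried H3K27ac in B cells and more H3K56ac in LPD. Ncf1 H3K56ac was 0.210 and 0 kb in B cells and 3.96 and 5.33 kb in LPD, a change of 3.10 ± 0.24 (SE) with adjusted p 0.00519. The start of Ncf1 was within a gained H3K56ac stretch (chr5:134229306-134229897). Its printed promoter has none of the 3 motifs and carried H3K27ac in both B cell lists. Ncf1 H3K18ac was 1.37 and 0.617 kb against 2.85 and 2.33 kb and missed the threshold in the main fit. As bases within 10 kb of the gene, without assignment, it was 2.17 and 1.55 kb against 11.9 and 9.72 kb. On that count it was called higher, as with the gene span alone, a pseudocount of 2 kb or the replicate number as a block. The other alternatives that kept every list did not call it. Cybb H3K56ac was 0 in both B cell lists and 1.45 and 1.59 kb in LPD. Cybb H3K27ac was 7.80 and 6.54 kb in B cells and 5.54 and 3.46 kb in LPD, and its H3K18ac 0.283 and 1.58 kb against 4.87 and 2.50 kb, neither past the threshold. Without LPD list 2 the Ncf1 H3K56ac change was 2.90 with adjusted p 0.0518.

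For H3K27ac the Ncf1 value depended on how the peaks were cut. It went from 2.39 and 2.88 kb in B cells to 8.30 and 6.72 kb in LPD, a change of 1.35 ± 0.20 (SE) with adjusted p 0.0175. In B cells, most of the stretch from 1 to 10 kb upstream is a wide peak that comes within 1 kb of Gtf2i and was given to that gene, and in LPD the same stretch is split and partly given to Ncf1. Peaks covered 6.55 and 6.21 kb of those upstream bases in B cells and 7.64 and 6.80 kb in LPD. Counted as bases within 10 kb of the gene, without assignment, the Ncf1 H3K27ac change was 0.27 with adjusted p 0.410, while that of H3K56ac was 2.92 with adjusted p 0.0020. The H3K27ac call was also lost without B cell list 1 (adjusted p 0.209), without B cell list 2 (0.0997) and with the gene span alone (0.0689). The same upstream bases held 1.92 and 1.55 kb of H3K18ac in B cells and 7.76 and 7.12 kb in LPD, and 0.443 and 0.505 kb of H3K56ac against 4.39 and 4.87 kb.

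Counted by regions, the merged peaks of a mark, 4 members gained an H3K27ac region, one found in each LPD list and absent from B cells (Csf2rb, Cebpd, Cd68 and Ncf1), against 11.1% of all genes. H3K18ac had 10 such members (21.4% of all genes) and H3K56ac 8 (18.3%). The reverse, a region lost from LPD, held for 5 members in H3K27ac (Itgam, Cebpb, Gfi1, Trem1 and Cybb, with 12.9% of all genes), for Cebpb and Gfi1 in H3K18ac (4.96%) and for Gfi1 in H3K56ac (4.24%). Of the 16 gained H3K56ac regions of the members, 7 lay within 1 kb of a listed start site and another 4 at an end of a gene whose start is not listed. Of the 9 lost H3K27ac regions, 2 lay within 1 kb of a listed start.

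By limma, 13 members were tested for H3K27ac, of which 4 were higher in LPD (8.46% of 11477 genes) and 3 lower (13.4%). For H3K18ac 13 were tested, 6 were higher (29.3% of 11421 genes) and 0 lower (3.81%), with 0 lower at an unadjusted p under 0.05 as well. For H3K56ac 11 were tested, 9 were higher (39.8% of 11224 genes) and 1, Gfi1, was lower (4%). Members with a peak in fewer than 2 of the 4 lists were not tested, and 2, 4 and 6 of those tested had 0 kb in both B cell lists, so that they could enter only by being higher in LPD. Trem1 had 0 kb in both LPD lists for H3K27ac and could enter only by being lower. Of members with peaks in both groups, those called were Fcgr3 and Ncf1 (higher) and Csf3r and Gfi1 (lower) for H3K27ac, Csf3r and Cd68 (higher) for H3K18ac, and Cebpb, Tyrobp and Ncf1 (higher) and Gfi1 (lower) for H3K56ac. Centring each list on its median changed the shares of all genes higher and lower to 19.0% and 22.2% for H3K27ac, to 26.0% and 19.1% for H3K18ac and to 19.2% and 13.9% for H3K56ac. The members higher and lower were then 5 and 6, 6 and 1, and 6 and 1.

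The counts moved when 1 list was left out, as did those of all genes. Without LPD list 1, 0 members were higher for H3K18ac and 1 for H3K56ac, and the shares of all genes tested that were higher were 12.4% and 6.75%. Without LPD list 2, 2 and 0 members were higher, and 28.6% and 1.99% of all genes. Members without a B cell peak are then no longer tested, which left 9 for H3K18ac and 5 for H3K56ac. For H3K27ac, 2 members were higher without B cell list 1 or 2 (5.32% and 4.85% of all genes), and 6 were lower without LPD list 1 (38.9% of all genes).

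Summed over the 30 members, H3K27ac was 38.3 and 44.4 kb in B cells and 35.3 and 25.5 kb in LPD, a log2 difference of -0.46. H3K18ac was 17.4 and 17.6 kb against 39.6 and 26.6 kb (0.89), and H3K56ac 7.92 and 8.16 kb against 21.2 and 21.2 kb (1.40). The groups did not overlap in any mark, and the exact two-sided permutation test gave its smallest possible p for 2 lists against 2, 0.333, each time. As a share of all covered sequence the H3K18ac difference was 0.01, with the members at 0.130 and 0.126% of the covered length in B cells and 0.135 and 0.124% in LPD. The H3K56ac difference was 0.58 on that basis, from 0.0749 and 0.0865% to 0.125 and 0.116%. For H3K27ac the shares were 0.141 and 0.168% in B cells and 0.135 and 0.140% in LPD, nearer to each other than the summed lengths. LPD list 2 of that mark covered 18.2 Mb, and the other H3K27ac lists of B cells and LPD 26.2 to 27.1 Mb. In bulk chromatin, fewer cells with a mark and less of the mark per cell cannot be told apart.

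Other genes of the myeloid programme were read in the same way. Of 10 further neutrophil genes, Il1b alone had peaks in LPD, in both lists of each mark. The others, Ngp, Lcn2, Mmp8, Mmp9, Cd177, Cxcr2, Ms4a3, Fpr1 and Hp, had none in LPD. Il1b, the inflammatory cytokine, fell in H3K27ac from 3.03 and 3.54 kb to 0.478 and 0.236 kb, a change of -2.15 ± 0.19 (SE) with adjusted p 0.00553. Of 14 monocyte and macrophage genes, 4, 6 and 4 were tested for H3K27ac, H3K18ac and H3K56ac. By limma 0 were higher (8.46% of all genes) and 1 lower (13.4%) for H3K27ac, 3 were higher for H3K18ac (29.3%) and 2 for H3K56ac (39.8%). Fcgr4, a receptor for immunoglobulin G, rose in H3K18ac from 1.38 and 1.47 kb to 4.69 and 2.86 kb (1.12 ± 0.26, adjusted p 0.0344) and in H3K56ac from 1.06 and 1.07 kb to 2.39 and 2.70 kb (0.96 ± 0.09, adjusted p 0.00629). The macrophage genes C1qa, C1qb, C1qc, Spic, Vcam1 and Siglec1 had no peak in the B cell or LPD lists.

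Of the 6 further myeloid factors, 4 had H3K27ac in both B cell lists and 5 in both LPD lists. Spi1, the gene of PU.1, which B cells express as well, had H3K27ac of 6.75 and 6.91 kb in B cells and 3.99 and 3.26 kb in LPD, a change of -0.83 ± 0.19 (SE) with adjusted p 0.0422. Its H3K18ac was 3.42 and 3.48 kb against 4.50 and 3.63 kb, and its H3K56ac 3.13 and 3.07 kb against 3.26 and 3.30 kb. Each was above in both LPD lists without a call. Irf5 rose in H3K18ac from 1.49 and 1.44 kb to 4.14 and 3.10 kb (1.06 ± 0.19, adjusted p 0.0199). Its H3K27ac was 7.93 and 8.47 kb in B cells and 5.10 and 4.47 kb in LPD, below in both LPD lists without a call. The H3K56ac values of Irf5 overlapped between the groups. Among 14 partners of the oxidase and of ITAM signalling, 12, 13 and 13 were tested for the 3 marks. By limma 2 were higher and 3 lower for H3K27ac (8.46% and 13.4% of all genes), 7 were higher for H3K18ac (29.3%), and 8 were higher and 2 lower for H3K56ac (39.8% and 4%). Sirpa, an inhibitory receptor of myeloid cells, rose in H3K27ac from 2.26 and 1.34 kb to 8.08 and 5.65 kb (1.69 ± 0.30, adjusted p 0.0249), and its H3K56ac was 0 in both B cell lists and 4.72 and 5.22 kb in LPD. Ncf4, the oxidase subunit p40phox, rose in H3K56ac from 1.37 and 0.818 kb to 5.35 and 5.66 kb (1.94 ± 0.20, adjusted p 0.00775).

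**Figure D4:**
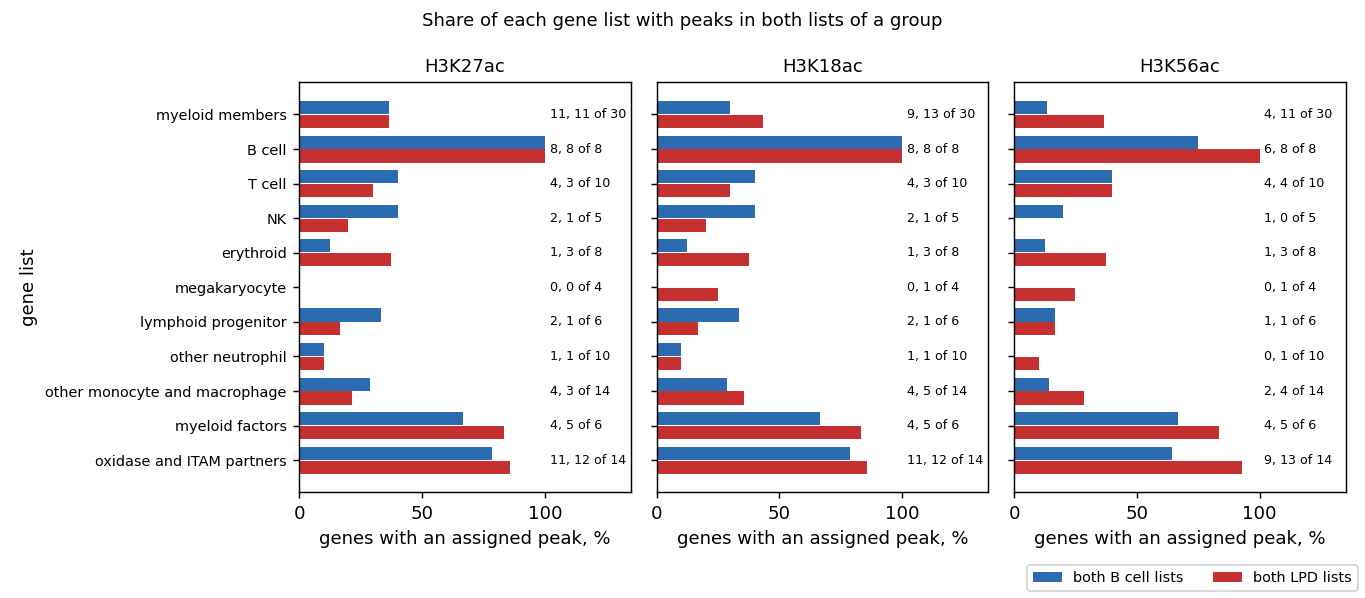
Share of each gene list (rows) with an assigned peak in both B cell lists (blue) and in both LPD lists (red), in percent, for 3 marks, with the counts for B cells and LPD at the right. The B cell list is complete in both groups for H3K27ac, and the erythroid list goes from 1 to 3 of 8 genes.

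Markers of B cells and of other cells differed between LPD and B cells as well, and LPD was not sorted. Summed over the 8 B cell markers, H3K18ac was 29.0 and 33.8 kb in B cells and 92.4 and 60.4 kb in LPD, and H3K56ac 24.7 and 25.4 kb against 49.8 and 54.5 kb. All 8 were above both B cell lists in both LPD lists for these 2 marks (30.4% and 36.6% of all genes). Of the 8, limma called 4 and 7 higher (29.3% and 39.8% of all genes tested). Their H3K27ac was 119.9 and 113.1 kb against 103.1 and 71.2 kb, with 0 of the 8 called (8.46% of all genes tested were higher and 13.4% lower). Of 8 erythroid genes, 1 had H3K27ac in both B cell lists and 3 in both LPD lists, with summed H3K27ac of 0.742 to 0.797 kb in B cells and 4.08 to 8.14 kb in LPD. Slc4a1, the anion exchanger of red cells, had 4.43 and 2.85 kb of H3K27ac in LPD and 0 in B cells. It was named after its values were seen. Summed erythroid H3K18ac was 0.409 to 0.430 kb against 4.48 to 5.59 kb, H3K56ac 0.471 to 0.736 kb against 2.30 to 2.94 kb, and Gata1 and Hbb-bs were at 0 in all 3 marks. The T cell genes Cd3e, Cd3g, Cd8a, Cd8b1 and Thy1 were at 0 in both groups in all 3 marks, and 4 of 10 T cell genes had H3K27ac in both B cell lists against 3 in both LPD lists. Summed T cell H3K27ac was 9.98 to 12.5 kb in B cells and 5.09 to 7.83 kb in LPD, H3K18ac 10.2 to 11.04 kb against 10.3 to 13.3 kb, and H3K56ac 5.89 to 6.64 kb against 6.28 to 7.72 kb. Of single T cell genes, Cd3d was lower for H3K27ac (2.17 and 2.17 kb against 0.970 and 0.589 kb, limma adjusted p 0.0232), Cd247 had H3K27ac in B cells only (0.426 and 0.503 kb), and Cd4 had H3K56ac in LPD only (0.429 and 0.343 kb). Of 5 NK cell genes, 2 had H3K27ac in both B cell lists and 1 in both LPD lists. The 4 megakaryocyte genes summed to 0 kb of H3K27ac in B cells and to 0 to 0.448 kb in LPD, and Itga2b had H3K18ac (0.451 and 0.447 kb) and H3K56ac (0.217 and 0.322 kb) in LPD and none in B cells. The part of these cells in the changes of the myeloid members was not tested.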

How the data were processed

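ChIP-seq peak lists of 15 of the 30 samples were analysed, and the other 15 samples, an input and 14 RNA-seq libraries, were not analysed here. Bowtie2 2.1.0, MACS2 2.0.10, bedtools and Picard are named in the submitters' processing notes with mm10, and their settings are not given in the sources used here. Each deposited file lists peak positions (chromosome, start, end) per library, with no score, and read depth is unknown. Group membership follows the labels.

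Peaks were assigned to 21631 RefSeq protein-coding genes of the autosomes and X (GRCm38.p6) as described. Regions are the merged peaks of the 4 lists of a mark, and 1 bp of overlap counts. Changes were fitted with limma 3.58.1 (trend and robust empirical Bayes, R 4.3.3) on log2(assigned kb + 0.5), for genes with peaks in at least 2 of 4 lists, with Benjamini-Hochberg adjusted p under 0.05. Summed kb was compared by exact permutation. Other steps used Python 3.11.15, NumPy 2.4.6, pandas 2.3.3 and Matplotlib 3.10.9. In the fit tested on simulated data, with 200 changed genes per mark, changes of 2 on the log2 scale were recovered for 100% of changed genes over 11477 H3K27ac genes, 97% over 11421 H3K18ac genes and 96% over 11224 H3K56ac genes. Changes of 1 were recovered for 60%, 46% and 78%. The changed genes were drawn only from those with a positive mean on that scale, with normal noise. Fewer genes were changed there than limma called in the data. These rates therefore do not cover members with little assigned sequence or with no peak in a group.

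The members and the other gene lists were chosen with earlier results of these data known. Values of all members are given, fit values only for those past the threshold with peaks in both groups, and from each further myeloid list up to 4 genes with the most LPD sequence were eligible for naming; others are named as counted or marker genes. Promoters were printed for members whose promoter had a peak in some groups only. Values of some single genes of the other lists are not reported here.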

Additional observations from a re-analysis of the deposited data

How the results depend on the processing

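Values are peak lengths, so a wider call and a stronger mark look alike, and a peak inside or near a gene need not act on it. With 2 lists per group, agreement of both is the only replicate check.

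All summed lengths kept the sign of their log2 difference under every alternative run. As a share of covered sequence, however, the H3K18ac values of B cells and LPD overlapped with almost no difference, as given above. On leaving out 1 list the differences ran from -0.69 to -0.22 for H3K27ac, 0.61 to 1.18 for H3K18ac and 1.38 to 1.42 for H3K56ac. With the gene span and 1 kb only, 7 and 7 members had H3K27ac peaks in both B cell lists and in both LPD lists. For H3K18ac these numbers were 5 and 8. Members with a lost region were then 3 for H3K27ac and 1 for H3K18ac. By limma, 2 were higher for H3K27ac (7.75% of all genes tested). A 10 kb window also left 3 members with a lost H3K27ac region. Lists shortened to their widest peaks gave 5 members with a gained H3K56ac region and 5 higher for H3K56ac by limma (25.8% of all genes tested). Centring on list medians gave 6 members lower for H3K27ac (22.2% of all genes tested) and 1, Gfi1, lower for H3K18ac (19.1%). Leaving out 1 list in turn gave 4 to 7 members with a gained H3K27ac region and 1 to 2 with a lost H3K56ac region. The limma counts of members moved in the same step, as did those of all genes (given above). Fewer members are tested when an LPD list is left out. The cause of the other shifts was not tested. For members with peaks, or with gained or lost regions, the shares of all genes under these alternatives are not given here. Whether the members moved differently from other genes in those counts was not tested.

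Replicate numbers are shared by the groups, and the labels do not say whether same-numbered lists were prepared together. Deviations of same-numbered lists had correlations of 0.03, -0.02 and -0.03 over the genes of H3K27ac, H3K18ac and H3K56ac. Those values do not settle whether the lists were paired. With the replicate number as a block, 5 members were lower for H3K27ac (19.4% of all genes tested) and 4 higher (12.5%). For H3K18ac 7 were higher (35.8%) and for H3K56ac 9 (33.2%). The summed lengths had p = 0.5, the smallest an exact sign-flip permutation of 2 pairs can give. Of the 23 member and mark pairs past the threshold, 13 had 0 kb in a whole group, which fixed their direction in the main fit. Among the other 10, only Gfi1 for H3K27ac stayed past the threshold under every alternative that tested it, and none of the 10 changed sign. Counts of members with peaks in both lists of a group under alternatives, and bases within 10 kb of the gene, were chosen after seeing the data.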
